A study of Mus musculus with 8 samples.

Results

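Icam1 and Vcam1, the genes of the leukocyte adhesion molecules ICAM-1 and VCAM-1, were followed by RNA-seq in primary mouse astrocytes in which GSTM1, a glutathione S-transferase, had been knocked down. They were chosen by their symbols and are 2 of the 54146 genes quantified in each of 8 libraries. The question of the experiment was how the loss of GSTM1 changes the gene expression program that astrocytes start in response to TNF-α. The cells came from the cortices of newborn C57BL/6 mice and grew as mixed glia, in which lentivirus delivered an shRNA against Gstm1 (GSTM1 KD) or a non-silencing shRNA (control KD), so that all 4 groups carried a virus and went through puromycin selection. Astrocytes were then enriched by shaking off the cells on top and removing CD11b-positive cells, and were harvested unstimulated (basal level) or 6 h after TNF-α was added at 50 ng/ml. Each group, control KD basal, GSTM1 KD basal, control KD TNF-α and GSTM1 KD TNF-α, held 2 biological replicates, and nothing in the labels says how the replicates were prepared. An effect of the hairpin on other transcripts cannot be told apart from the loss of GSTM1 in this design.

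ICAM-1 and VCAM-1 are cell surface proteins of the immunoglobulin family that leukocytes hold on to through integrins, ICAM-1 through LFA-1 and Mac-1 and VCAM-1 mainly through VLA-4. They are best known on the endothelium of inflamed vessels, where they arrest rolling leukocytes, but astrocytes make both when exposed to inflammatory cytokines. Binding of TNF-α to its receptors frees NF-κB from its inhibitors in the cytoplasm, and NF-κB, with partners such as IRF1 and AP-1, binds the promoters of both genes.

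The total of the estimated counts ran from 17349682 to 34434615 per library. The targeted gene checked the labels: basal Gstm1 was 10.1-fold lower in GSTM1 KD (log2 fold change −3.33, adjusted p = 0.0132 by edgeR) and 12.8-fold lower after TNF-α (log2 fold change −3.67, adjusted p = 0.0098). The astrocyte markers were abundant, with the 10 listed genes summing to between 3229 and 9601 CPM (counts scaled to a common library total) in every library. Of 12 brain endothelial markers, Cldn5 had 0 counts in all 8 libraries and Emcn and Tie1 had 3 or fewer, while 8 to 9 of the 12, depending on the group, were above 3 counts in at least 1 library of it, among them Flt1 at 112 to 408 counts, Slco1a4 at up to 1681 and Cdh5 at 17 to 218. Of 14 microglial and macrophage markers, P2ry12 stayed at 3 counts or fewer and 9 to 13 were above 3 counts by the same measure, among them C1qa at 4 to 78 counts and Cd68 at 36 to 150.

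Icam1 (ENSMUSG00000037405.8) lies on chromosome 9 of GRCm38 from 21015985 to 21028817 on the forward strand, with 7 exons in its protein-coding transcript. The gene for ICAM-4 starts 555 bases beyond its end. The antisense gene Gm47079 covers the last part of Icam1 on the other strand and had at most 23.8 estimated counts in a library, against at least 253 for Icam1. Vcam1 (ENSMUSG00000027962.14) lies on chromosome 3 from 116109949 to 116129688 on the reverse strand, with 9 exons in its full-length transcript. Its antisense neighbour Gm43109 had 1 count in 1 library and 0 in the others. The sources used here do not say whether reads were counted by strand. The counts of both antisense genes are small beside those of Icam1 and Vcam1.

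The RefSeq promoter table held 1 of the 2 genes, Icam1, and its sequence is shown because the results turn on the level of Icam1 mRNA. The transcripts of Icam1 in the GENCODE annotation start at 21015985, beyond the end of the stretch shown. The stretch runs from 250 bases before the RefSeq start site to 29 bases from it (GRCm38.p6, chr9:21015690-21015968, forward strand, start site at 21015940). Capitals mark, from 5′ to 3′, a κB core (GGANNTTCC), a STAT palindrome (TTCNNNGAA), a GC box (GGGCGG, read on the other strand), a TATA box (TATAAA) and a second GC box on the other strand. Both strands were searched, and no marked motif overlaps another.
Icam1 promoter: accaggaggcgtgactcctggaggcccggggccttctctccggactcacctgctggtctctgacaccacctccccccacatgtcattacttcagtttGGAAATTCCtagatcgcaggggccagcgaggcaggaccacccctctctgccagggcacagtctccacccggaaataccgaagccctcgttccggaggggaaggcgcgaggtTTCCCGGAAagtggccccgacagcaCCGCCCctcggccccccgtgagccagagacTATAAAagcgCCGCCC
Counted from the RefSeq start, the κB core sits at −153 to −145 and the STAT palindrome at −42 to −34. The TATA box covers bases 14 to 19, with the RefSeq start as base 1, and its last base is 27 bases before the start of Icam1 in the GENCODE annotation, which places the gene's first base 45 bases further downstream. Of 32851 promoter windows of 300 bases in the table, 4.26% held the κB core, 8.3% the STAT palindrome, 35.7% a GC box and 13.6% a TATA box. A match of letters is a description of the sequence and was not tested for binding.

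Vcam1 has more than a single protein-coding transcript in the annotation, and they are shown because the estimated length of Vcam1 mRNA differed between libraries, as described further on. The full-length transcript has 2217 coding bases, and the transcript of a short form has 1035. The short form is known in mice to be held in the membrane by a lipid anchor. They share their first 928 coding bases and part after exon 4. The sequences below give the last 30 shared bases in lower case (chr3:116124383-116124412, reverse strand) and the next 45 coding bases of each transcript in capitals (chr3:116121029-116121073 for the full-length transcript and chr3:116123749-116123793 for the short form).
Vcam1 full-length transcript: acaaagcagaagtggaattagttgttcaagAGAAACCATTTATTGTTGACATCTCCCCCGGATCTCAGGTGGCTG
Vcam1 short-form transcript: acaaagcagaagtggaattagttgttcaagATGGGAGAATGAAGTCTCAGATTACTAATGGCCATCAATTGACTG

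TNF-α raised both genes strongly, in control KD and in GSTM1 KD astrocytes. Icam1 mRNA stood at 33.2 and 29.1 CPM in unstimulated control KD and at 379 and 435 CPM after TNF-α. In GSTM1 KD it stood at 15.2 and 12.7 CPM at the basal level and at 202 and 154 CPM after TNF-α. From the lowest, the group means fell in the order GSTM1 KD basal, control KD basal, GSTM1 KD TNF-α and control KD TNF-α. Vcam1 mRNA stood at 311 and 296 CPM in control KD at the basal level and at 2022 and 2595 CPM after TNF-α. In GSTM1 KD it stood at 241 and 242 CPM at the basal level and at 1596 and 1448 CPM after TNF-α. The group means of Vcam1 followed the order of Icam1.

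**Figure D1:**
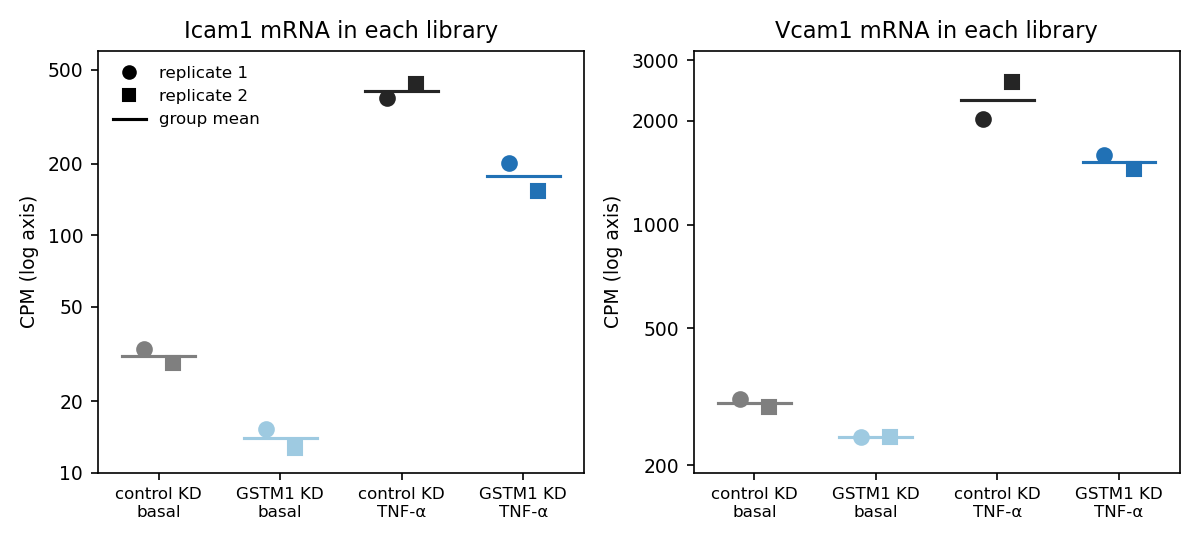
Icam1 (left) and Vcam1 (right) in CPM on a log axis, each with its own range, in each of the 8 libraries. Circles and squares are replicates 1 and 2 and lines are the means of the 2 libraries of a group. Both genes are lowest in GSTM1 KD basal and highest in control KD TNF-α, where Icam1 reaches 435 and Vcam1 2595 CPM.

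In control KD astrocytes, Icam1 rose 13.1-fold with TNF-α, from 31.2 ± 2.94 to 407 ± 39.6 CPM (mean ± SD, n = 2). Its log2 fold change was 3.71 with a standard error (SE) of 0.177 and an adjusted p of 0.000239 by edgeR's quasi-likelihood test. Vcam1 rose 7.61-fold, from 303 ± 10.4 to 2309 ± 405 CPM (log2 fold change 2.93, SE 0.144, adjusted p = 0.000239). Of 15332 genes tested, 2.63% passed the threshold of an adjusted p under 0.05, 2.1% higher and 0.528% lower after TNF-α. Ranked from the highest log2 fold change, Icam1 was number 56 and Vcam1 number 99.

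In GSTM1 KD astrocytes both genes rose as well. Icam1 rose 12.7-fold, from 13.9 ± 1.81 to 178 ± 33.5 CPM (log2 fold change 3.67, SE 0.18, adjusted p = 0.000268 by edgeR). Vcam1 rose 6.31-fold, from 241 ± 0.416 to 1522 ± 104 CPM (log2 fold change 2.66, SE 0.142, adjusted p = 0.000294). Here 2.65% of the 15332 genes passed, 2.35% higher and 0.294% lower. Icam1 was number 98 and Vcam1 number 170 from the highest.

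At the basal level, Icam1 was 2.23-fold lower in GSTM1 KD than in control KD astrocytes, before any TNF-α had been added. The log2 fold change was −1.16 (SE 0.161, 95% confidence interval −1.56 to −0.76, adjusted p = 0.0218 by edgeR on the 4 basal libraries). The mean of the GSTM1 KD libraries was 44.8% of the control KD mean, and the 4 possible pairs of a GSTM1 KD and a control KD library gave between 38.1% and 52.4%. Vcam1 was nearer to control, at 79.5% of the control KD mean, with pairs between 77.5% and 81.6%. Its log2 fold change of −0.33 (SE 0.108, interval −0.6 to −0.06) did not pass the threshold (adjusted p = 0.103). It passed with a block for the replicate number. Same-numbered libraries of the basal groups deviated together (correlation 0.269), but nothing in the labels says what they share. Without control KD basal replicate 2 the adjusted p by edgeR was 0.0304 (log2 fold change −0.37), in a fit where the control KD arm is 1 library and the spread comes from the GSTM1 KD libraries alone. The GSTM1 KD libraries of this state differed less from each other than the control KD ones (mean chi-square per degree of freedom 15.2 against 62.5). The adjusted p over the alternatives ran up to 0.571. Of 14899 genes tested, 10.2% passed, 5.62% lower and 4.6% higher in GSTM1 KD.

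After TNF-α, Icam1 was 2.33-fold lower in GSTM1 KD (log2 fold change −1.22, SE 0.164, interval −1.63 to −0.81, adjusted p = 0.0152 by edgeR on the 4 stimulated libraries). The GSTM1 KD mean was 43.7% of the control KD mean, with pairs between 35.5% and 53.2%. Vcam1 was at 65.9% of the control KD mean, with pairs between 55.8% and 78.9%. Its log2 fold change of −0.62 (SE 0.165, interval −1.04 to −0.21) missed the threshold in this fit (adjusted p = 0.0574). The same difference passed with DESeq2, the tool the authors used (log2 fold change −0.63, adjusted p = 0.00302), and with edgeR on all 8 libraries (−0.60, adjusted p = 0.023). It also passed with a block for the replicate number, where same-numbered libraries of the stimulated groups had a correlation of 0.203. Without control KD TNF-α replicate 1 or 2 the log2 fold change was −0.79 or −0.43 and the adjusted p by edgeR 0.0106 or 0.0449. In these fits the lone control KD library is assumed to vary like the GSTM1 KD pair, which differed less (chi-square per degree of freedom 17.3 against 42.2), so they add no support to the difference. The adjusted p over all alternatives ran from 3.9e-06 to 0.348. Of 14593 genes tested, 16.2% passed, 7.26% higher and 8.92% lower in GSTM1 KD.

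The size of the Icam1 difference held without either GSTM1 KD library, while its call did not. Without GSTM1 KD basal replicate 1 or 2 the basal log2 fold change was −1.3 or −1.04 and the adjusted p from edgeR 0.0944 or 0.168. In these fits only 1 and 3 genes of all those tested passed. Without GSTM1 KD TNF-α replicate 1 or 2 the log2 fold change was −1.42 or −1.03 and the adjusted p 0.0691 or 0.101, with 0 and 94 genes passing. Here the spread comes from the control KD libraries alone. Leaving out a control KD library kept the call in both states.

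**Figure D2:**
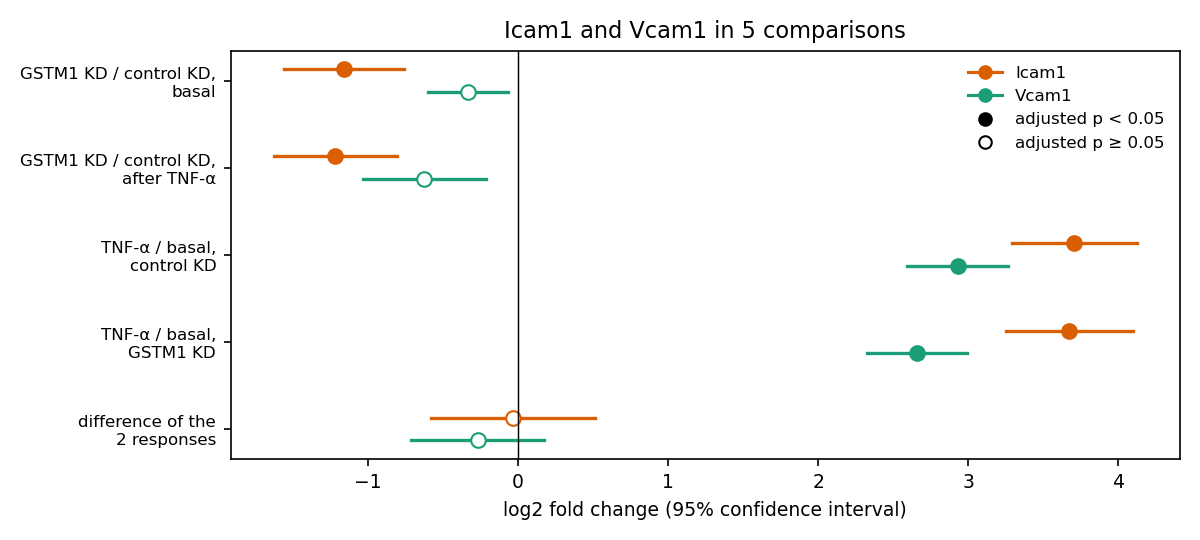
Log2 fold changes of Icam1 (orange) and Vcam1 (green) in 5 comparisons, with 95% confidence intervals from edgeR as bars. Filled points passed an adjusted p of 0.05 and open points did not. Icam1 lies at −1.16 and −1.22 in the comparisons of GSTM1 KD with control KD, and the difference of the 2 responses lies at −0.03 for Icam1 and at −0.27 for Vcam1.

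The fold response to TNF-α was then compared between GSTM1 KD and control KD, with the interaction of knockdown and stimulation. For Icam1 the log2 difference of the responses was −0.03 (SE 0.232, interval −0.58 to 0.51, adjusted p = 1 by edgeR on 8 libraries). The sign of this value turned in 4 of the 8 fits that left out 1 library. For Vcam1 it was −0.27 (SE 0.189, interval −0.72 to 0.18, adjusted p = 1, unadjusted p = 0.196 by edgeR). No gene of the 15332 passed (0%), 295 had an unadjusted p under 0.05, and DESeq2 called 27. The intervals leave room for a response in GSTM1 KD that is weaker or stronger for either gene, so the data do not show that the responses are alike. On the linear scale, the increase with TNF-α of Icam1 was 376 CPM in control KD against 164 CPM in GSTM1 KD, which is 43.6% of the control increase. For Vcam1 the increase was 2005 and 1281 CPM, or 63.9%.

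Compared per length, in TPM (transcripts scaled by their length and to a common library total), Vcam1 mRNA was the more abundant in every library. Without TNF-α, Icam1 was at 24.6 and 21.8 TPM in control KD against 11.9 and 9.83 TPM in GSTM1 KD. With TNF-α it was at 280 and 316 TPM against 151 and 118 TPM. Vcam1 was at 184 and 168 TPM against 141 and 140 TPM without TNF-α, and at 1266 and 1513 TPM against 917 and 828 TPM with it. Ranked by TPM among all genes, Vcam1 moved from place 903 and 1003 to place 109 and 71 in control KD, and Icam1 from place 6256 and 6809 to place 564 and 514. In GSTM1 KD, Vcam1 moved from place 1275 and 1286 to place 134 and 154, and Icam1 from place 8850 and 9392 to place 1163 and 1586.

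The ratio of Vcam1 to Icam1 differed between the groups in these libraries, and the exact test run on it could not pass. A model of the ratio over all groups was not fitted. There were 7.46 and 7.72 Vcam1 transcripts for each Icam1 transcript in control KD at the basal level and 11.9 and 14.2 in GSTM1 KD. After TNF-α the ratio was 4.52 and 4.79 in control KD against 6.07 and 7.01 in GSTM1 KD. It was higher in GSTM1 KD than in control KD within each state and lower after TNF-α within each knockdown, with no overlap of libraries in any of these 4 comparisons. An exact permutation test of 2 against 2 libraries gave p = 0.333 (two-sided) each time, the smallest it can give.

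The deposited lengths give, for each library, how long the transcripts of a gene are on average, each counted by its estimated share. For Icam1 this length stayed between 2528 and 2533 bases. Its annotated transcripts are the spliced one of 2535 bases and one of 2203 bases that retains an intron, and the lengths correspond to 98% to 99.4% of the spliced transcript. For Vcam1 the mean length was 3111 and 3260 bases in control KD at the basal level and 3286 and 3312 bases in GSTM1 KD. After TNF-α it was 2948 and 3098 bases in control KD and 3231 and 3318 bases in GSTM1 KD. Within each state the control KD mean was the shorter. It was 3186 ± 105 against 3299 ± 18.4 bases at the basal level (mean ± SD, n = 2). After TNF-α it was 3023 ± 106 against 3275 ± 61.2 bases. The difference in length was not tested. Vcam1 has 4 transcripts in the annotation, of 3469, 749, 2532 and 4088 bases, so a mean length does not give their shares, and a shorter mean need not be more of the short form.

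**Figure D3:**
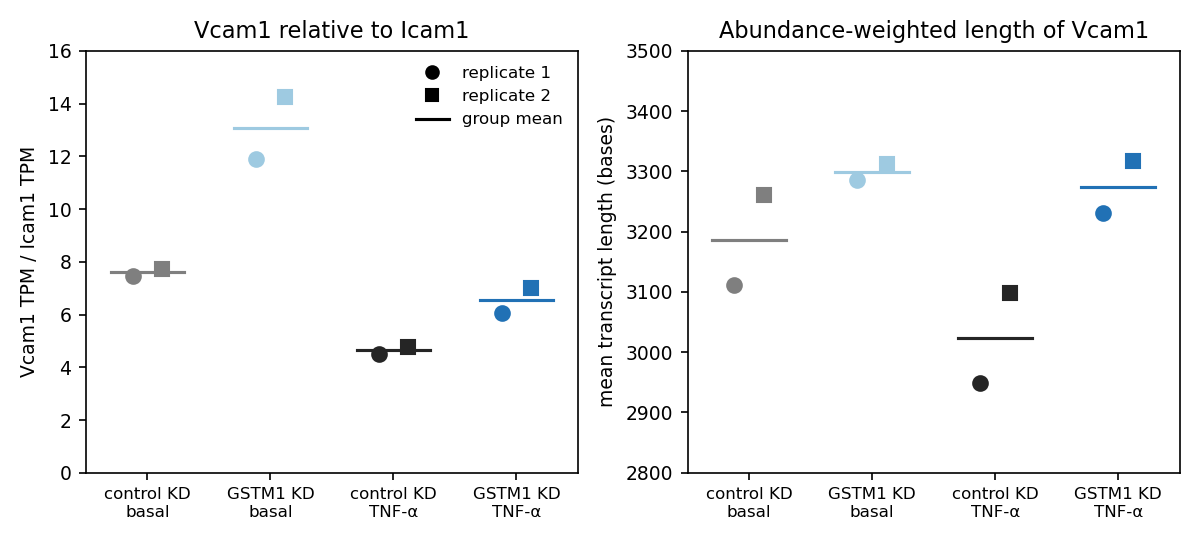
Left, Vcam1 TPM divided by Icam1 TPM in each library. Right, mean length of Vcam1 transcripts in bases, weighted by their estimated abundance, on an axis that does not start at 0. Points are libraries and lines are group means. The ratio is lowest in control KD TNF-α, at 4.52 and 4.79, and the length is lowest there as well, at 2948 and 3098 bases.

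Length bears on the count of Vcam1, since a longer transcript yields more fragments. When effective lengths entered edgeR as offsets, the log2 fold change of Vcam1 after TNF-α was −0.73 (adjusted p = 0.0357) in place of −0.62. In TPM the GSTM1 KD mean of Vcam1 was 62.8% of the control KD mean after TNF-α and 79.9% at the basal level. The same shares for Icam1 were 45.1% and 46.8%.

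Selectins make leukocytes roll on a vessel wall before ICAM-1 and VCAM-1 arrest them. Of 10 selectins, ligands and addressins, 7 were tested for the response to TNF-α, and 3 rose in control KD and 4 in GSTM1 KD, where 2.1% and 2.35% of all genes tested rose. Sele, which encodes E-selectin, had 7 and 12 counts in control KD at the basal level and 806 and 1037 after TNF-α, or 0.198 and 0.469 against 34.7 and 62.4 CPM. In GSTM1 KD it had 4 and 3 counts at the basal level and 222 and 182 after TNF-α, or 10.3 and 10.4 CPM. Sele was lower in GSTM1 KD after TNF-α (log2 fold change −2.25, SE 0.291, adjusted p = 0.0143 by edgeR), the same direction as Icam1 in that comparison.

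Selp, which encodes P-selectin, stood at 0.678 and 0.586 CPM in control KD at the basal level and at 51.9 and 120 CPM after TNF-α. In GSTM1 KD it stood at 0.987 and 0.551 CPM and at 34.5 and 34 CPM. It rose in both (log2 fold change 7.06, adjusted p = 0.000992, and 5.45, adjusted p = 0.0024, by edgeR), and its log2 difference of −1.34 between GSTM1 KD and control KD after TNF-α did not pass (adjusted p = 0.0639). Cd44, a receptor for hyaluronan that also binds E-selectin, was lower in both states of GSTM1 KD (log2 fold change −0.85, adjusted p = 0.0227, and −0.67, adjusted p = 0.0307) and rose with TNF-α in both (0.6 and 0.79). Madcam1, an addressin of gut vessels, rose in GSTM1 KD (log2 fold change 4.01, adjusted p = 0.0219), from 1 and 4 counts to 44 and 33. Without any 1 of the GSTM1 KD libraries, 2 of the 4 rises in GSTM1 KD still passed.

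The other ICAM genes were low. Icam2 had at most 1 count in a library, and Icam4, the nearest neighbour of Icam1, between 4 and 12 counts, where no response passed. Icam5, a neuronal ICAM further along the same chromosome, stood at 1.32 ± 0.0679 CPM in unstimulated control KD and 4.38 ± 1.2 CPM after TNF-α (log2 fold change 1.72, adjusted p = 0.0298 by edgeR). Its call was lost in 7 of the 8 fits without 1 library. Its log2 difference between GSTM1 KD and control KD was 1.05 at the basal level, in the other direction from Icam1, and did not pass (adjusted p = 0.083).

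Other adhesion molecules of the immunoglobulin family and of cell junctions seldom passed for the response to TNF-α, and the same holds of all genes, where the control KD share was 2.63% and the GSTM1 KD share 2.65%. Of 18 tested, 0 passed in control KD by edgeR (3 at an unadjusted p under 0.05, 1 by DESeq2) and 1 rose in GSTM1 KD, Cd47, which encodes a signal that restrains phagocytosis (log2 fold change 0.97, adjusted p = 0.0319). In control KD its log2 fold change was 0.71 (adjusted p = 0.0931). The call of Cd47 was lost without any 1 of the 4 GSTM1 KD libraries. Between the knockdowns, GSTM1 KD had 3 of 17 higher and 1 lower before stimulation, and 5 higher and 2 lower after it, where 4.6% and 5.62% of all genes tested were higher and lower before stimulation and 7.26% and 8.92% after it. Thy1, a surface glycoprotein that binds leukocyte integrins, was higher in both states (log2 fold change 0.97, adjusted p = 0.0224, and 0.99, adjusted p = 0.0152). Nectin1, a junction protein, was higher in both (1.18 and 0.88), as was Cd99l2, which takes part in the passage of leukocytes through vessel walls (0.83 and 0.97). Esam, an endothelial junction molecule, was lower in both (−2.79 and −2.43), from 2.59 ± 0.293 to 0.372 ± 0.0405 CPM at the basal level. Alcam stood at 16.4 ± 6.59 and 29.2 ± 9.69 CPM at the basal level in control KD and GSTM1 KD and did not pass. Mcam (log2 fold change 0.08 and 0.09) and Ncam1 (0.15 and 0.13) did not pass between the knockdowns in either state, and Pecam1 stayed below 1 CPM.

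The integrins that bind ICAM-1 and VCAM-1 belong on leukocytes, and most were near the floor here. Itgal, the LFA-1 subunit, was not tested. Itgam, the CD11b subunit on which the cells had been depleted, had 61 and 8 counts in control KD at the basal level against 3 and 0 in GSTM1 KD. Itgb2, the β subunit of both, stood at 0.98 ± 0.612 and 0.3 CPM (mean ± SD in control KD and mean in GSTM1 KD) and did not pass. Itga4, the VLA-4 subunit, was lower in GSTM1 KD after TNF-α (log2 fold change −1.45, adjusted p = 0.042 by edgeR), the 1 of 4 integrin genes tested that passed in that state, where 16.2% of all genes passed. That call was lost without control KD TNF-α replicate 1, without either GSTM1 KD library and with length offsets. At the basal level 0 of 4 passed (2 at an unadjusted p under 0.05), beside 10.2% of all genes. Itgb1, the shared β subunit that most cells carry, was at 859 ± 82 and 896 ± 88.5 CPM at the basal level and did not pass.

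Inside the cell, ICAM-1 and VCAM-1 are tied to the actin cytoskeleton. Of 15 genes for these anchors, 0 passed for the response to TNF-α in either knockdown by edgeR (2 in control KD and 1 in GSTM1 KD at an unadjusted p under 0.05), beside 2.63% and 2.65% of all genes. In GSTM1 KD, 2 were lower before stimulation and 5 after it, beside 5.62% and 8.92% of all genes tested, and 0 were higher, beside 4.6% and 7.26%. Cav1, which encodes the coat protein of caveolae, was lower in both states (log2 fold change −1.34, adjusted p = 0.0218, and −1.07, adjusted p = 0.0244). Rac1, a GTPase that acts below VCAM-1, was also lower (−0.89, adjusted p = 0.0195, and −0.81, adjusted p = 0.0153). Flna, which encodes an actin crosslinker (−0.76), and the actin regulator Vasp (−0.41) passed only after TNF-α, and whether the states differ is covered by the interaction, where none passed. The linkers Ezr, Rdx and Msn, which bind the tails of both adhesion molecules, had log2 differences between −0.17 and 0.19 that did not pass in either state.

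Membrane proteases cut ICAM-1 and VCAM-1 from the cell surface. Adam17, the main one for VCAM-1, stayed at 64.3 ± 7 and 68.5 ± 2.92 CPM at the basal level and did not pass in any comparison. Rhbdf2, which guides ADAM17 to the surface, was lower in unstimulated GSTM1 KD (log2 fold change −1.4, adjusted p = 0.0296 by edgeR) and rose with TNF-α in both (1.52 and 2.11). Timp1, an inhibitor of metalloproteases, was lower in both states of GSTM1 KD (log2 fold change −1.57, adjusted p = 0.0277, and −1.57, adjusted p = 0.0122). Timp3, the inhibitor of ADAM17, was higher in GSTM1 KD after TNF-α (0.71) and fell with TNF-α in control KD (−0.72), and Adam10 was higher in GSTM1 KD after TNF-α (0.55). Mmp9 rose in control KD (3.13, adjusted p = 0.0169), from 6 and 2 counts to 24 and 22. In this list, 0 of 7 genes tested were higher in GSTM1 KD and 2 lower before stimulation. After it, 2 of 8 were higher and 1 lower. Over all genes, 4.6% were higher and 5.62% lower before stimulation, and 7.26% and 8.92% after it. With TNF-α, 2 of 8 rose and 1 fell in control KD, beside 2.1% and 0.528% of all genes. In GSTM1 KD, 1 rose and 0 fell, beside 2.35% and 0.294%. For the response in control KD, 0 genes of this list passed without replicate 2 of either control KD group.

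Of 26 genes for transcription factors known to act on the Icam1 or Vcam1 promoter, TNF-α raised 8 in control KD, 10 in GSTM1 KD and lowered 0 in either, beside 2.1% and 2.35% of all genes raised and 0.528% and 0.294% lowered. Irf1 stood at 22.7 and 18.6 CPM in control KD at the basal level and at 169 and 190 CPM after TNF-α (log2 fold change 3.11, adjusted p = 0.000239 by edgeR). In GSTM1 KD it went from 21.6 and 20.1 to 211 and 177 CPM (3.22, adjusted p = 0.000255). Irf1 levels overlapped between the knockdowns in both states, and a part of Irf1 in the level of Icam1 was not tested. The NF-κB genes Relb (2.35 and 2.75), Nfkb2 (2.09 and 2.07) and Nfkb1 (1.73 and 1.29) rose in both, as did Rela (0.63 and 0.51).

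Rela, which encodes the p65 subunit of NF-κB, was also lower in GSTM1 KD. It stood at 98.6 and 91.6 CPM in control KD and 62.7 and 61.7 CPM in GSTM1 KD without stimulation (log2 fold change −0.61, adjusted p = 0.027 by edgeR). After TNF-α it stood at 139 and 157 CPM against 90.1 and 86.8 CPM (−0.76, adjusted p = 0.0153). In the whole list, 6 of 26 were lower and 1 higher at the basal level, and 6 were lower and 4 higher after TNF-α. Over all genes tested, 5.62% were lower and 4.6% higher at the basal level, and 8.92% and 7.26% after TNF-α. Sp1, a factor of GC boxes, was lower in both states (−0.75, adjusted p = 0.0195, and −0.73, adjusted p = 0.0144), as was Hmga1, an architectural protein of chromatin (−1.86, adjusted p = 0.0178, and −1.65, adjusted p = 0.0132). Ets1 (−0.79 and −0.85) and Klf4 (−1.63 and −1.42) were lower as well, and Ets2 was higher (1.03 and 0.86). Jun, a component of AP-1, was higher after TNF-α (0.43, adjusted p = 0.0482).

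Of 9 genes listed under NF-κB feedback, not all of them inhibitors of NF-κB, 7 rose in each knockdown. Over all genes, 2.1% rose in control KD and 2.35% in GSTM1 KD. Nfkbia, which encodes the inhibitor IκBα, rose in control KD from 41.8 ± 6.82 to 416 ± 31.4 CPM, and in GSTM1 KD from 29.1 ± 4.57 to 406 ± 14.5 CPM (log2 fold change 3.31, adjusted p = 0.000239, and 3.81, adjusted p = 0.000255, by edgeR). After TNF-α the log2 difference of Nfkbia between GSTM1 KD and control KD was −0.06 (adjusted p = 0.731). Tnfaip3, which encodes the deubiquitinase A20, was lower in both states of GSTM1 KD (−1.79, adjusted p = 0.0336, and −0.88, adjusted p = 0.0315). Tnfaip2, another TNF-induced gene, had a log2 fold change of −2.17 before (adjusted p = 0.0195) and −2.3 after TNF-α (adjusted p = 0.0141), and Tnip1 was lower after TNF-α (−0.58). Cyld, a deubiquitinase that restrains NF-κB, was higher after TNF-α (0.67).

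**Figure D4:**
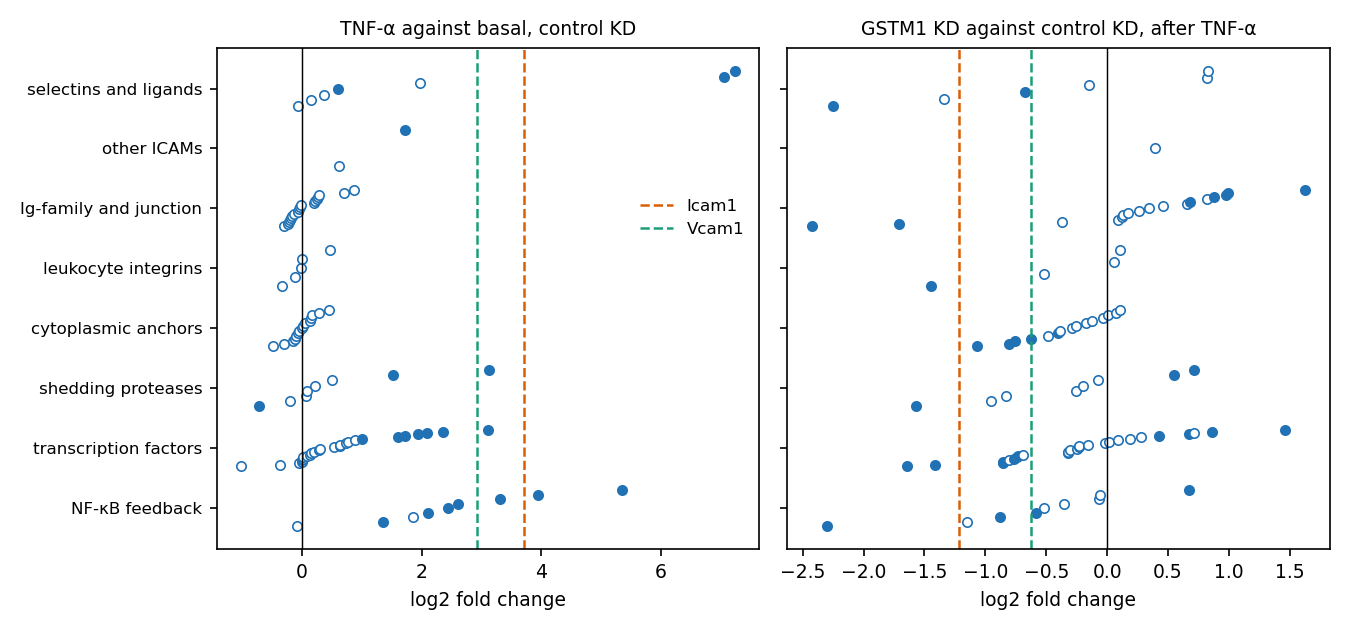
Log2 fold changes of the genes of 8 lists around ICAM-1 and VCAM-1, with TNF-α against the basal level in control KD on the left and GSTM1 KD against control KD after TNF-α on the right. Each point is a gene, filled where its adjusted p was under 0.05, and dashed lines mark Icam1 and Vcam1. On the left the selectins Selp and Sele lie at 7.06 and 7.24, and on the right Sele lies at −2.25, further from 0 than Icam1.

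Over the 8 lists, GSTM1 KD had 4 of 84 genes tested higher and 14 lower before stimulation, and 12 of 86 higher and 20 lower after it, where 5.62% and 8.92% of all genes tested were lower and 4.6% and 7.26% higher. Before stimulation, 8 of 81 were higher and 20 lower with DESeq2, and 14 of 97 and 30 without a filter on low counts. With the replicate block 16 of 84 were higher and 30 lower, and with all 8 libraries 7 of 90 and 21. After TNF-α the same settings gave 14 and 23, 17 and 30, 17 and 27, and 12 and 19. The counts also moved with single libraries in both directions. Without control KD basal replicate 2, 18 list genes were higher and 28 lower before stimulation, and without control KD basal replicate 1, 4 were higher and 20 lower. After TNF-α, 12 were higher and 28 lower without control KD TNF-α replicate 1, and 19 and 26 without replicate 2. Without either GSTM1 KD library, 0 list genes passed before stimulation, and after it 0 passed without replicate 1 and 1 without replicate 2. The responses to TNF-α gave 21 of 90 higher and 1 lower in control KD and 23 higher and 0 lower in GSTM1 KD. Over all genes, the shares higher and lower were 2.1% and 0.528% for the control KD response, against 2.35% and 0.294% for that of GSTM1 KD. With only the 4 libraries of a knockdown, 11 of 87 list genes rose in control KD and 28 of 85 in GSTM1 KD. The rises in GSTM1 KD numbered 10 without either basal GSTM1 KD library and 13 or 17 without a stimulated one, and those in control KD between 14 and 25 without 1 library. For the difference of the responses 0 of 90 passed by edgeR and 0 by DESeq2, with 5 at an unadjusted p under 0.05, and without a filter on low counts 2 passed as higher and 1 as lower by edgeR. The lists' median log2 fold change after TNF-α in control KD ran from −0.04 for the immunoglobulin family to 2.44 for NF-κB feedback, beside −0.02 over all genes. In GSTM1 KD it ran from −0.02 to 2.44 for the same lists, beside −0.01. Between GSTM1 KD and control KD after TNF-α, the median was −0.52 for NF-κB feedback, −0.41 for selectins, −0.29 for the anchors, −0.24 for the transcription factors, −0.23 for the proteases, −0.23 for the integrins and 0.34 for the immunoglobulin family, beside −0.01 over all genes. At the basal level it was −0.56 for the integrins, −0.50 for NF-κB feedback, −0.34 for the anchors, −0.14 for the transcription factors, −0.12 for the proteases, 0.29 for selectins and 0.37 for the immunoglobulin family, beside −0.0020 over all genes. The selectin medians cover different genes, 5 of them without stimulation and 6 with it.

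The genes whose level was most like that of Icam1 over the 8 libraries, by Pearson's r of log2 CPM among 11233 genes, were Cxcl16 (r = 0.997), Ripk2 (0.996), Ampd3 (0.994), Tnfaip2 (0.993) and Birc3 (0.993). Cxcl16 encodes a membrane-bound chemokine, Ripk2 a kinase of innate immune signalling, Ampd3 a deaminase of AMP and Birc3 an inhibitor of apoptosis. Those most like Vcam1 were Tmem132e (0.995), Ralb (0.995), Tnip1 (0.995), Ripk2 (0.993) and Birc2 (0.992). Vcam1 was number 18 for Icam1 and Icam1 number 16 for Vcam1, with r = 0.987 between them. By Spearman's rank correlation each was number 43 for the other (0.976), and other genes came first. There 15 genes stood at a correlation of 1 with Icam1 and 7 with Vcam1, so the order among them is not given. The 8 libraries fall into stimulated and unstimulated ones, so the values include the step between them, and they carry no test.

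The knockdowns also differed in markers of astrocytes and of other cell types, and in bulk samples fewer cells of a type and less RNA per cell cannot be told apart. The counts of markers that passed stand against 5.62% of all genes lower and 4.6% higher without stimulation, and 8.92% and 7.26% with it. The 10 astrocyte markers summed, without stimulation, to 3229 to 7204 CPM in control KD and 6567 to 9601 CPM in GSTM1 KD, and to 3315 to 7335 and 6721 to 9513 CPM after TNF-α. Of these 10, 0 were higher in GSTM1 KD by edgeR and 1 was lower in each state, S100b (log2 fold change −1.44, adjusted p = 0.0269, and −1.71, adjusted p = 0.0387). Gfap, the intermediate filament of astrocytes, carried most of the difference between these sums, at 2036 ± 1473 and 4373 ± 1773 CPM without stimulation, and it did not pass (adjusted p = 0.234). Aqp4, a water channel, was at 1087 and 1030 CPM, Slc1a3, a glutamate transporter, at 721 and 725 CPM and Sox9, a transcription factor, at 338 and 239 CPM. The other astrocyte markers had positive log2 fold changes without and with TNF-α that did not pass. These were Aldh1l1 (1.05 and 1.22), Aldoc (1.11 and 1.10), Glul (0.78 and 0.88), Slc1a2 (0.67 and 0.49) and Gja1 (0.36 and 0.07). The 12 endothelial markers summed to between 54.1 and 87 CPM in control KD and between 35.9 and 39.1 CPM in unstimulated GSTM1 KD, and to 45.6 to 87.8 and 31.1 to 37.6 CPM after TNF-α. Slco1a4 and Flt1 make up most of these sums, at 48.7 ± 24.1 and 11.9 ± 0.469 CPM in unstimulated control KD, and Kdr had log2 fold changes in the other direction (1.39 and 1.25) that did not pass. Of 7 tested, 1 was lower in GSTM1 KD in each state, Esam. The 9 pericyte and smooth muscle markers summed to 5560 to 6391 CPM in control KD and 2762 to 3400 CPM in unstimulated GSTM1 KD, and to 5239 to 5260 and 2556 to 3102 CPM after TNF-α. Here 2 of 6 tested were lower in each state, Acta2 (log2 fold change −1.02 and −0.93) and Tagln (−0.98 and −1.01), which make up most of the sum. Pdgfrb, the PDGF receptor of pericytes, was higher after TNF-α (0.81, adjusted p = 0.0337), and Pdgfrb at the basal level (0.46), Cspg4 (0.32 and 0.24) and Rgs5 (1.64 and 1.55) had positive log2 fold changes that did not pass. Abcc9 and Kcnj8 had 3 or fewer counts in every library. The 10 fibroblast markers summed, without stimulation, to 307 to 472 CPM in control KD and 179 to 289 CPM in GSTM1 KD, and to 284 to 449 and 174 to 287 CPM after TNF-α, with Slc6a13 at 0 in all libraries. Of 8 tested, Col1a2, a collagen chain, was lower in both states (−1.13 and −0.99) and Foxc1, a transcription factor, after TNF-α (−0.62). The 14 microglial markers summed to 54.8 to 60.1 and 51.7 to 57 CPM at the basal level, where 0 of 7 tested passed, and to 51.2 to 55.4 and 48 to 58.4 CPM after TNF-α, where 0 of 6 passed. The part of these marker differences in the lower Icam1 and Vcam1 of GSTM1 KD was not tested.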

How the data were processed

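RNA-seq of 8 libraries was used, 2 replicates in each of 4 groups taken from the labels. The authors made strand-specific libraries, aligned paired reads with STAR (version 2.5.4) to GRCm38 and ran RSEM (version 1.3.0) for gene levels (both also in the submitters' processing notes). The expected counts deposited hold RSEM's estimated fragments of each gene, not scaled and not always whole. The deposited TPM values are scaled by effective length and to the same total in each library. The other deposited columns used, the length and effective length, are in bases and weighted by transcript abundance. Totals of 17349682 to 34434615 per library set the precision, and a count of 3 or fewer was taken as the floor.

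Expected counts were rounded. edgeR (version 4.0.16, R version 4.3.3) gave TMM factors, the filterByExpr filter, CPM and the quasi-likelihood test with Benjamini-Hochberg adjustment over all genes tested at 0.05. The fits of GSTM1 KD against control KD used the 4 libraries of a state, and responses and their difference on all 8. Alternatives were DESeq2 (version 1.42.0), other scalings and filters, a replicate block, length offsets, other sets of libraries and leaving out each library. Promoters came from a RefSeq table (GRCm38.p6) and gene models from GENCODE M21, which holds 52480 of the 54146 identifiers with the same version. Python (version 3.11.15) drew the figures. The procedure was run on simulated counts, which had the same spread in all groups and so leave out the unequal spread of these groups.

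The genes, the 8 lists around them and the 8 lists of cell type markers were chosen with earlier results of these data known. Named are Icam1 and Vcam1, a fixed set of their relatives, partners and regulators, up to 3 higher and 3 lower genes of each list with the smallest p among those that passed in a comparison, and the 5 genes most like each. A few further list genes that passed are named to complete a count and were chosen after their values were seen. Some genes that enter the counts of the lists are not reported here by name. Nothing says whether replicates came from separate cultures or animals beyond the word biological, so p-values measure the spread between these libraries. Replicates differed by more than sampling noise in every group. Markers of oligodendrocyte, neuronal and choroid plexus cells were also listed, and of these Olig2 (log2 fold change −0.85 and −1.14) was lower and Folr1 (2.67 and 2.78) higher in GSTM1 KD in both states, and Olig1 (−0.44) lower after TNF-α. No neuronal marker passed (0 of 5 tested by edgeR in each state).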

Additional observations from a re-analysis of the deposited data

How the results depend on the processing

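Of 142 values of Icam1 and Vcam1 under alternatives, 124 kept their direction and their side of the threshold, and the cause of each change below was not tested. Every response to TNF-α of both genes passed in all 16 alternatives tried. The difference of Icam1 between GSTM1 KD and control KD lost its call only when a GSTM1 KD library was left out. Over the fits without 1 library its log2 fold change ran from −1.3 to −1.04 at the basal level and from −1.42 to −1.03 after TNF-α. Vcam1 at the basal level passed with the replicate block (−0.33, adjusted p = 0.0331 by edgeR) and without control KD basal replicate 2, with a range of −0.37 to −0.30 over the fits without 1 library. Vcam1 after TNF-α passed in 8 of 12 alternatives: with DESeq2 (−0.63), library size only (−0.59), no filter (−0.63), the replicate block (−0.62, adjusted p = 0.025), effective lengths as offsets (−0.73), all 8 libraries (−0.60), and without control KD TNF-α replicate 1 or 2. A fit without 1 library leaves an arm of 1, which is assumed to vary like the other groups in the fit. Without 1 library it ran from −0.79 to −0.43. The difference of the Icam1 responses changed sign in 4 fits without 1 library, in a range of −0.25 to 0.14 (0.05 without control KD basal replicate 2, 0.11 without GSTM1 KD basal replicate 1, 0.05 without control KD TNF-α replicate 2 and 0.14 without GSTM1 KD TNF-α replicate 2), and never passed.

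Counts of all genes that passed moved more. At the basal level 1524 became 2492 with DESeq2, 3957 without a filter, 4712 with the replicate block, 2762 with all 8 libraries and 1 to 5256 without 1 library. After TNF-α 2360 became 4540 without a filter, 4302 with the block and 0 to 5028 without 1 library. For the response in control KD 403 became 742 with DESeq2, 1255 without a filter, 988 with the block, 72 with only the 4 control KD libraries and 180 to 313 without 1 library. For the response in GSTM1 KD 406 became 630, 1050, 808 and 691 in the same settings and 74 to 444 without 1 library. For the difference of the responses 0 became 27 with DESeq2, 134 without a filter and 0 to 2 without 1 library. Same-numbered libraries deviated together across groups (correlations of 0.151 to 0.536 over 15332 genes), but with 2 numbers they were taken to share only a number, and the block stands as an alternative.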
